A study of Coturnix japonica with 24 samples.

Results

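The daily course of transcripts within long days was examined in the mediobasal hypothalamus of Japanese quail (Coturnix japonica), on the 12 long-day arrays of the 24 arrays in the study. The 12 were chosen by their labels alone: long-day birds sampled at zeitgeber time (ZT) 2, 6, 10, 14, 18 and 22, with 2 arrays at each time. The quail were 8-week-old males, strain and genotype not given in the labels, that had lived for 4 weeks in short days and then spent 2 weeks under 20 h of light and 4 h of dark. At each time 6 birds were taken, and each array carried labelled cRNA from 5 ug of RNA pooled from 3 of them, so a value is a mean over 3 brains and the 2 arrays of a time are separate pools. ZT was read as hours after lights on, which makes ZT22 the 1 time in the dark. A difference between dark and lit hours is therefore also one between ZT22 and the other times, and darkness and time of day cannot be told apart. The late hours are ZT14 and ZT18 (4 arrays), the early hours ZT2 and ZT6 (4 arrays), the dark hours ZT22 (2 arrays) and the lit hours the other 5 times (10 arrays).

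The mediobasal hypothalamus lies above the pituitary stalk, and a block of it can carry the pars tuberalis, the pituitary tissue around that stalk. In birds, long days raise thyrotropin in the pars tuberalis, and thyrotropin acts on neighbouring tanycytes to raise the deiodinase that makes active thyroid hormone, which opens the reproductive response. The circadian clock of most vertebrate tissues is a loop in which the activators CLOCK, NPAS2 and ARNTL (BMAL1) drive the period, cryptochrome and REV-ERB genes, whose proteins then repress the activators. Transcripts of ARNTL and of its repressor NR1D2 (REV-ERB beta) therefore tend to peak at opposite times.

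Intensities below are on the deposited scale after each array was brought to a common median of 15.38, and changes are on the log2(intensity + 1.538) scale. Levels of different genes are not comparable, since chicken probes can bind quail transcripts unequally. Before centring, the medians of the arrays numbered 1 were 16.81 to 19.93 and those of the arrays numbered 2 were 11.29 to 13.81, so for many genes the change or peak is also given for each number apart. The share of probe sets above background was 39.92% to 48.88% per array, where background was the 95th percentile of 746 probe sets without the chicken prefix. The hypothalamic peptides NPY, POMC, AGRP and VIP and the tanycyte deiodinase DIO2 were above background on all 12 arrays. In bulk tissue, fewer cells of a type and less RNA per cell cannot be told apart.

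The second ZT14 array, a late and lit one, stood apart from the other 11. Its median rank correlation with the others was 0.797, against 0.847 to 0.872 for each of the others. Its summed intensity over 11 oligodendrocyte genes was 4340, against 8100 to 11200 on the other arrays. MBP, the myelin basic protein gene, gave 2570 there and 5950 to 7660 elsewhere. The low oligodendrocyte sum thus came largely from MBP and does not show a drop across the list. The sum over 17 immediate early genes, EGR1 among them, was 1450, against 2010 to 2800 on the others. EGR1, an activity-induced transcription factor, gave 59.7 there and 627 to 1240 elsewhere. The low immediate early sum thus came largely from EGR1 and does not show a drop across the list. The MBP and EGR1 values are those of the brightest probe set of each gene, and their other probe sets are given further on. The microglia and immune sum was 588, against 628 to 933, and the glycolysis and glycogen sum 27700, against 22900 to 27500. Both lay only a little outside the range of the other arrays. This array also had the highest 3′ to 5′ log2 ratios of the ACTB and GAPDH control probe sets, 2.209 and 0.3678. The part of RNA quality or dissection in the results was not tested, and changes that it moves by much are given with and without it.

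**Figure D1:**
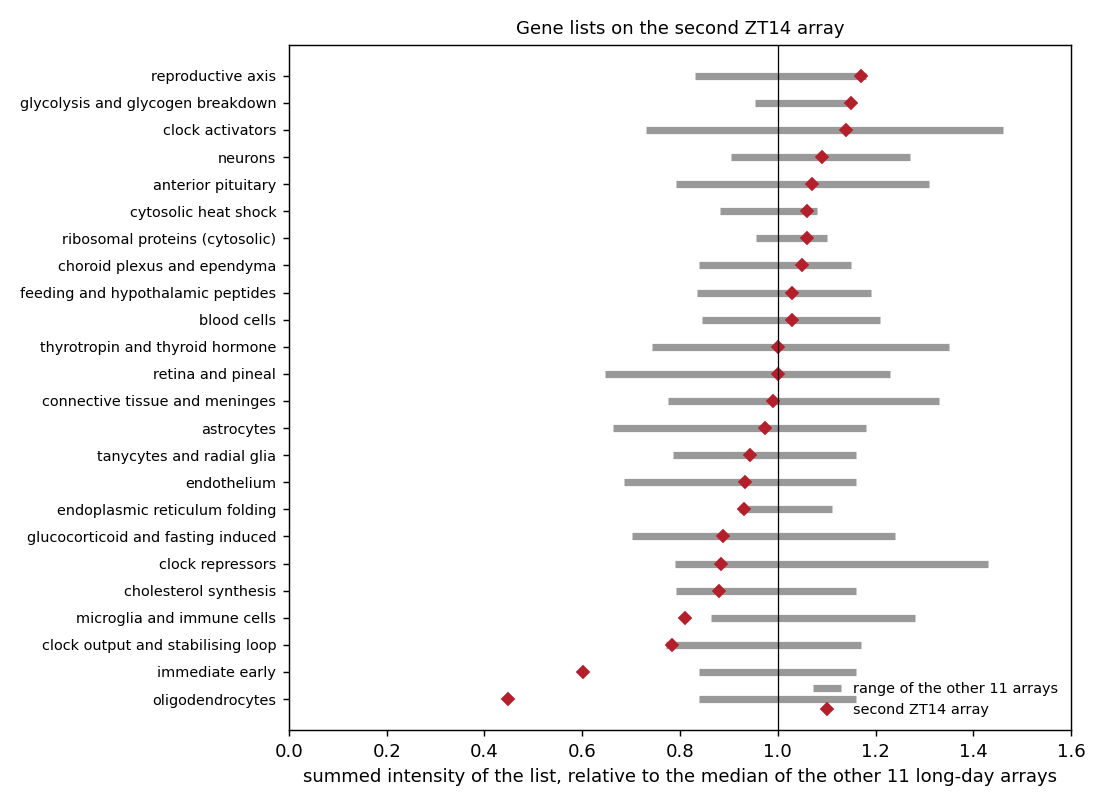
Summed intensity of each of 24 gene lists on the second ZT14 array (diamond) relative to the median of the other 11 long-day arrays, with the range of those 11 (grey bar). The oligodendrocyte sum, at 0.448 of the median, the immediate early sum, at 0.602, and the microglia and immune sum, at 0.81, lie below the range of the other arrays. The low oligodendrocyte sum came largely from MBP, and the low immediate early sum largely from EGR1.

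Few transcripts could be told apart from the spread between pools by time of day. Of 38439 probe sets, 0 passed the limma test of late against early hours at an adjusted p under 0.05 (0%), and 1658 (4.31%) had an unadjusted p under 0.05. The late values were higher in 769 of these (2%) and lower in 889 (2.31%). In the dark against lit comparison 1 probe set passed (0.0026%), that of GPX4, and 1374 (3.57%) had an unadjusted p under 0.05, with the dark values higher in 539 (1.4%) and lower in 835 (2.17%). The test of any difference among the 6 times passed 0, with 1378 (3.58%) at the unadjusted level, and the test of a 24 h cosine passed 0, with 1667 (4.34%). Each of these unadjusted shares was below the 5% at which the threshold was set.

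These counts rested on single arrays in part. Without the first ZT14 array, which leaves ZT14 with the second array alone, 76 probe sets passed the late against early test and 125 the test of any difference. Without the second ZT14 array both counts were 0. The number past the dark against lit test lay between 0 and 4 when single arrays were left out.

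**Figure D2:**
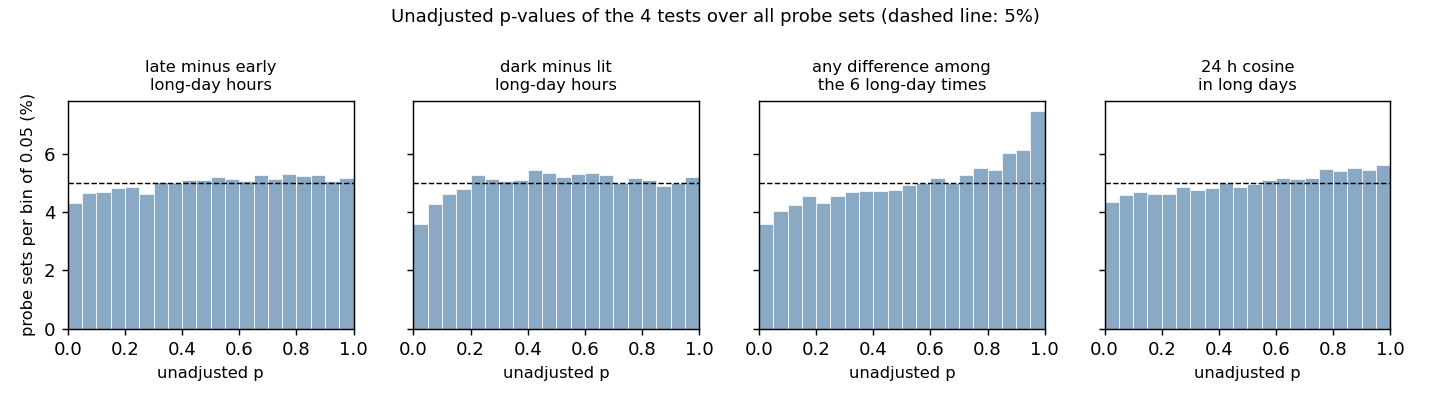
Unadjusted p-values of the 4 tests over 38439 probe sets, as the percentage of probe sets in each bin of 0.05, with a dashed line at 5%. The lowest bin holds 4.31%, 3.57%, 3.58% and 4.34% of the probe sets, below the line in each panel.

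The sizes involved were as follows over the 15991 probe sets with a mean above background. The median SD between the 2 arrays of a time was 0.471 log2 units, and the median SD of the 6 time means was 0.302, against 0.333 from the within-time spread alone. The median cosine amplitude, which is the height of the curve above its mean, was 0.222, the 90th percentile 0.532 and the 99th 0.911. The median standard error was 0.385 for late minus early, 0.421 for dark minus lit and 0.215 for an amplitude. Arrays of the same time but different number had a median rank correlation of 0.854 (6 pairs), and arrays of different times and different numbers 0.853 (30 pairs). Arrays that shared a number but not a time had a median of 0.865 (30 pairs).

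GPX4, the glutathione peroxidase that reduces lipid hydroperoxides in membranes, was the 1 gene past a test. GPX4 gave 14.6 and 23.9 in the dark at ZT22. In the lit hours it gave 79.1 and 81.4 at ZT2, 55.4 and 99.5 at ZT6, 101 and 125 at ZT10, 115 and 87.2 at ZT14, and 114 and 88.8 at ZT18. Both dark arrays were below all 10 lit arrays, the first of them under its array's background of 17.77 and the second above its background of 17.67. GPX4 was lower by 2.21 ± 0.34 (SE) at ZT22, the dark time, than in the lit hours, with an adjusted p of 0.041 from limma. The dark minus lit change was -2.50 on the arrays numbered 1 and -1.93 on those numbered 2, and -1.64 to -2.54 over 23 alternative settings, of which 14 ended the call. Of all probe sets, 1030 (2.68%) had dark values outside the range of the lit ones. GPX4 has 1 probe set with a single gene symbol on this array, so no other probe set could be set beside it.

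Of the 4 clock activators, only ARNTL had an unadjusted cosine p under 0.05, and none passed an adjusted test. ARNTL gave 70.1 and 75.3 at ZT2, 68.6 and 71.6 at ZT6, 157 and 118 at ZT10, 216 and 114 at ZT14, 146 and 132 at ZT18, and 70.4 and 80.1 at ZT22. The 4 late arrays were all above the 4 early ones, and both arrays at ZT22 were back near the early values. The late minus early difference was 1.03 ± 0.30 (unadjusted p 0.0018, adjusted p 1) and 1.26 without the second ZT14 array. The cosine amplitude was 0.67 ± 0.16 with a peak at 14.2 h (unadjusted p 0.0012), and the peak was at 13.9 h on the arrays numbered 1 and 14.8 h on those numbered 2. In all, 990 probe sets (2.58%) had late and early values that did not overlap, 500 of them (1.3%) higher late and 490 (1.27%) lower. The other 3 ARNTL probe sets were dim, with means of 25.1, 1.2 and 18.6, and gave late minus early values of -0.23, 0.25 and 0.42.

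NPAS2, a partner of ARNTL in place of CLOCK, gave 36.8 and 32.6 at ZT2, 52.7 and 53.4 at ZT6, 22.2 and 39.2 at ZT10, 103 and 71 at ZT14, 78.7 and 54.5 at ZT18, and 53.8 and 77.5 at ZT22. Its late arrays were all above its early ones, by 0.78 ± 0.31 (unadjusted p 0.018). The peak of its curve was at 17.6 h on either array number, with an amplitude of 0.49 ± 0.20 (unadjusted cosine p 0.055). A dimmer NPAS2 probe set, with a mean of 26.7, gave -0.36 for late minus early.

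CLOCK gave 217 and 256 at ZT2, 221 and 211 at ZT6, 199 and 187 at ZT10, 185 and 196 at ZT14, 183 and 192 at ZT18, and 128 and 164 at ZT22. The values at ZT22 were below all the lit ones, and the late ones below all the early ones, but the size was small. Dark minus lit was -0.49 ± 0.26 (unadjusted p 0.071) and late minus early -0.25 ± 0.24. A further CLOCK probe set of similar brightness, with a mean of 201, gave -0.11 for dark minus lit and 0.35 for late minus early. ARNTL2, a paralogue of ARNTL, was under background with a mean of 14.1. Over the 4 activators the median late minus early difference was 0.75, and 0.73 without the second ZT14 array, against -0.01 and 0.07 over all 13009 genes.

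**Figure D3:**
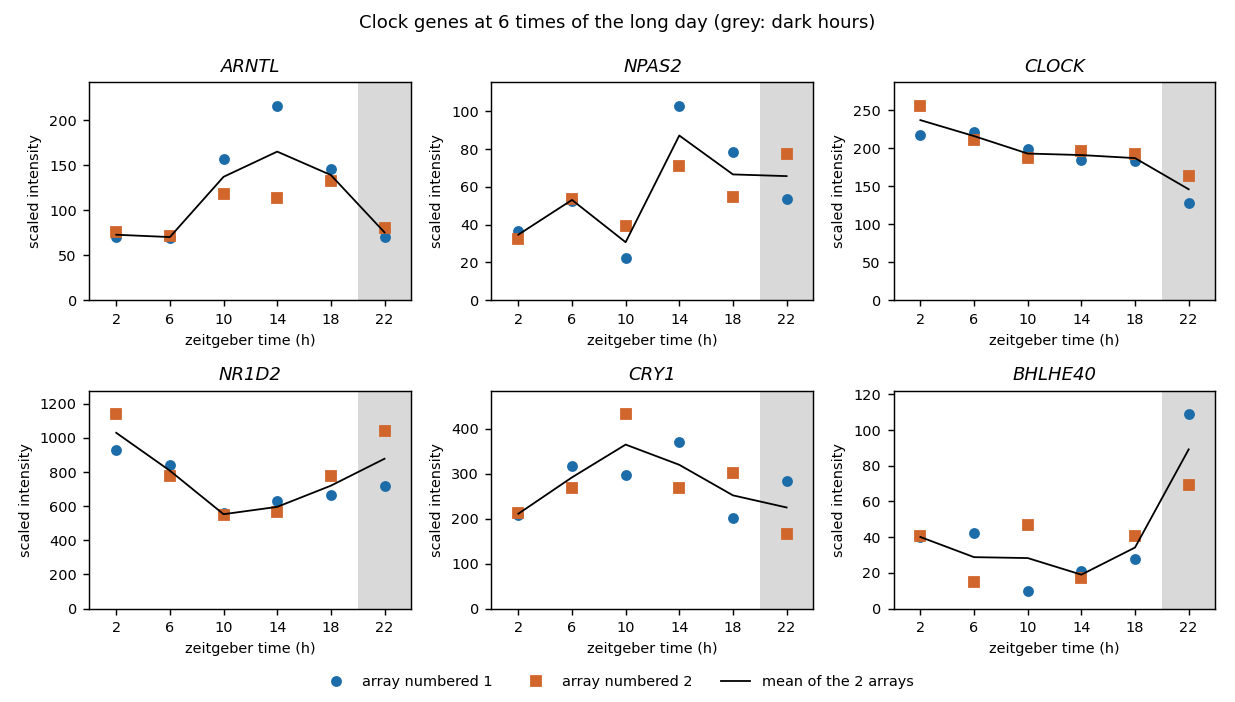
Intensity (linear axis, arrays brought to a common median) of 6 clock genes against zeitgeber time, with circles for the arrays numbered 1, squares for those numbered 2, a line through the mean of the 2 arrays and the dark hours in grey. ARNTL is 114 to 216 at ZT10 to ZT18 and 68.6 to 80.1 at ZT22 to ZT6, NR1D2 is lowest at ZT10, and BHLHE40 is highest at ZT22.

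NR1D2, which represses ARNTL, ran the other way. It gave 930 and 1140 at ZT2, 842 and 774 at ZT6, 560 and 547 at ZT10, 628 and 565 at ZT14, 665 and 775 at ZT18, and 720 and 1040 at ZT22. The lowest 3 values were at ZT10 and ZT14, and the highest 3 at ZT2 and ZT22. Its amplitude was 0.42 ± 0.11 with a peak at 0.736 h (unadjusted p 0.0025, adjusted p 1), and late minus early was -0.48 ± 0.19. Of 4 other NR1D2 probe sets, 3 had their peak between 22.1 and 22.5 h with amplitudes of 0.30, 0.57 and 0.38, and the last had an amplitude of 0.08. The set with 0.57 had an unadjusted cosine p of 0.035.

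BHLHE40 (DEC1), a repressor that competes with CLOCK and ARNTL for their binding sites, was highest in the dark. It gave 109 and 69.5 at ZT22, against 9.69 to 46.8 with a median of 33.7 on the 10 lit arrays. Both dark values were above all lit ones. Dark minus lit was 1.63 ± 0.53 (unadjusted p 0.0052, adjusted p 1), and 2.05 and 1.22 on the arrays numbered 1 and 2. Of 3 other BHLHE40 probe sets, all with means of 23.8 or less, 2 gave the opposite sign, -0.57 and -0.16, and the third gave 0.38. BHLHE41 (DEC2), its paralogue, peaked at 23.7 h with an amplitude of 0.37 ± 0.14 (unadjusted p 0.04).

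Among the repressors, CRY1, a cryptochrome, had its peak at 11 h. It gave 209 and 213 at ZT2, 317 and 268 at ZT6, 298 and 433 at ZT10, 371 and 269 at ZT14, 202 and 301 at ZT18, and 284 and 167 at ZT22. The lowest value was at ZT22 and the highest at ZT10, and the values at ZT2 were below those at ZT6, ZT10 and ZT14. The amplitude was 0.39 ± 0.13 (unadjusted p 0.022), with peaks at 10.7 and 11.1 h on the arrays numbered 1 and 2. A dimmer CRY1 probe set gave 0.58 with a peak at 10.6 h. CSNK1E, a kinase of the period proteins, peaked at 8.14 h with an amplitude of 0.44 ± 0.17 (unadjusted p 0.049). Its peaks on the 2 array numbers lay 3.57 h apart. A dim CSNK1E probe set, with a mean of 7.1, had an amplitude of 0.96 and a peak at 23.4 h.

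NPAS2, CLOCK, ARNTL2 and the clock members not yet named had no unadjusted cosine p under 0.05. PER2, a period gene, lay between 15.4 and 39.1 with an amplitude of 0.34 ± 0.30, and PER3 was under background. CRY2 had an amplitude of 0.16 ± 0.19. RORA, an activator of ARNTL, gave 438 to 562 with an amplitude of 0.08 ± 0.08, and TEF, an output transcription factor, had 0.03 ± 0.19, or 0.12 without the second ZT14 array. HLF had an amplitude of 0.17 ± 0.16 and NFIL3 one of 0.34 ± 0.19. NR1D1 and DBP had no probe set with a single symbol. The median amplitude was 0.57 over the 4 activators, 0.39 over 7 repressors and 0.37 over 9 output and stabilising genes, against 0.27 over all genes and 0.20 over those above background. At the unadjusted level 1, 2 and 3 members of these lists had a cosine, out of 508 among 13009 genes.

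Among thyroid pathway members above background, the subunits of thyrotropin had the highest amplitudes, though neither passed an adjusted test. TSHB, the beta subunit, gave 102 and 119 at ZT2, 129 and 153 at ZT6, 139 and 149 at ZT10, 403 and 196 at ZT14, 411 and 251 at ZT18, and 431 and 233 at ZT22. All 6 arrays from ZT14 on were above all 6 before it, and from ZT14 on the array numbered 1 was the higher of each pair. That split of the day was read from the TSHB values themselves, and the share of all probe sets with such a split was not counted. Late minus early was 1.26 ± 0.49 (unadjusted p 0.016, adjusted p 1), with 1.81 on the arrays numbered 1, 0.71 on those numbered 2 and 1.52 without the second ZT14 array. The amplitude was 0.81 ± 0.31 and the peak lay at 17.7 and 17.8 h on the arrays numbered 1 and 2.

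CGA, the alpha subunit shared with the gonadotropins, gave 865 and 880 at ZT2, 2080 and 1800 at ZT6, 1550 and 1400 at ZT10, 2490 and 1470 at ZT14, 1790 and 1820 at ZT18, and 1410 and 1030 at ZT22. Its ZT2 values were the lowest of the day, and its ZT6 values were already within the range of the late ones. A cosine with an amplitude of 0.43 ± 0.15 peaked at 13 h (unadjusted p 0.024), and the unadjusted p of any difference among times was 0.0042. Over 12 anterior pituitary markers, which include both subunits, the sum was 3700 to 4540 on late arrays and 2730 to 4050 on early ones. The median late minus early difference over these 12 was 0.13, and whether the amount of pituitary tissue differed between times was not tested.

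For the receptor TSHR, the enzymes DIO2 and DIO3 and the transporter SLCO1C1 the unadjusted cosine p was 0.15 or more. TSHR, the thyrotropin receptor, gave 20.4 to 83.5 with an amplitude of 0.41 ± 0.20 and peaks at 18.4 and 0.109 h on the arrays numbered 1 and 2. DIO2, which makes active thyroid hormone, gave 228 and 300 at ZT2, 272 and 265 at ZT6, 243 and 239 at ZT10, 287 and 259 at ZT14, 226 and 165 at ZT18, and 201 and 243 at ZT22. The lowest 3 values, 165, 201 and 226, were at ZT18 and ZT22, and late minus early was -0.20 ± 0.24. DIO3, which inactivates thyroid hormone, had an amplitude of 0.27 ± 0.16 with peaks at 10.7 and 17.8 h on the 2 array numbers. KLF9, a thyroid hormone responsive transcription factor, had an amplitude of 0.14 ± 0.13, and the transporter SLCO1C1 one of 0.16 ± 0.16. Of the 19 measured members of this list 12 were above background, and 3 had an unadjusted cosine p under 0.05: TSHB, CGA and SLCO4A1. The last, a further transporter, was under background.

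**Figure D4:**
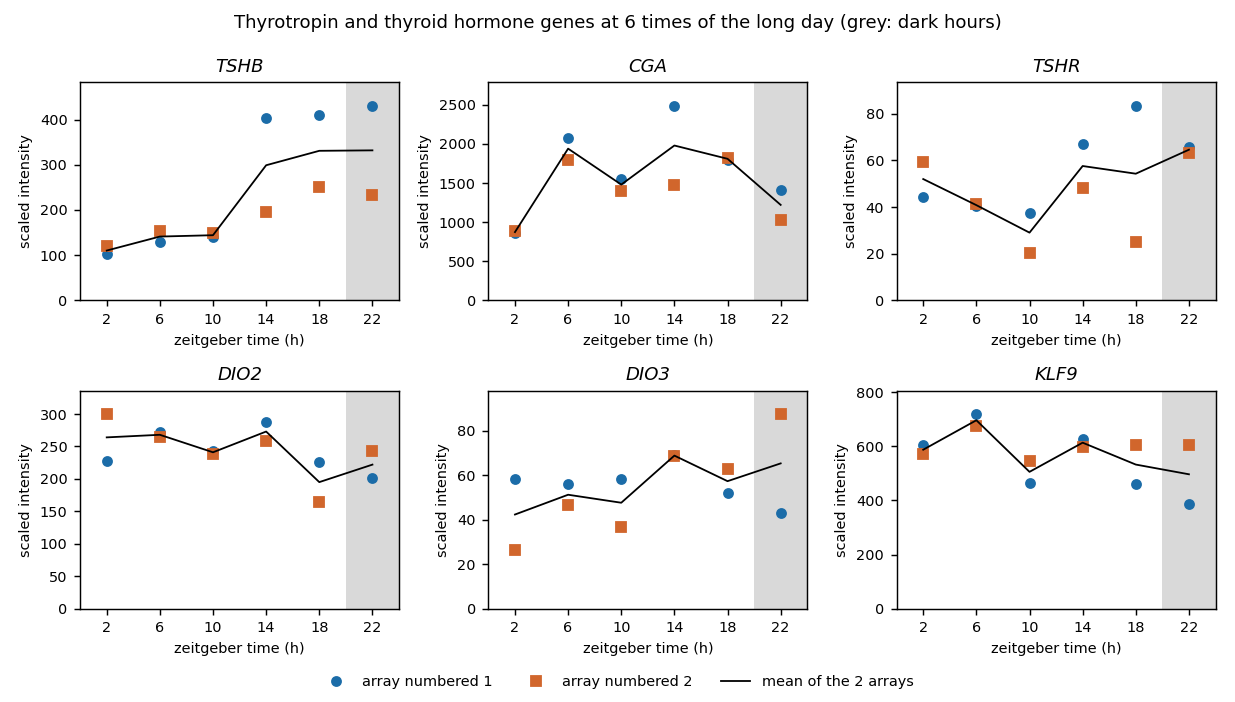
Intensity (linear axis) of thyrotropin and thyroid hormone genes against zeitgeber time, drawn as in the plot of clock genes. TSHB is 196 to 431 from ZT14 to ZT22 and 102 to 153 before, CGA is lowest at ZT2, and the peak times of DIO2, DIO3, TSHR and KLF9 differ by more than 4 h between the array numbers.

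Among hypothalamic peptides, NPVF was lower late in the day. NPVF encodes gonadotropin-inhibitory hormone, which in quail restrains the release of gonadotropins. It gave 723 and 1140 at ZT2, 910 and 818 at ZT6, 761 and 691 at ZT10, 389 and 343 at ZT14, 629 and 420 at ZT18, and 466 and 776 at ZT22. All late arrays were below all early ones. Late minus early was -1.03 ± 0.32 (unadjusted p 0.0035, adjusted p 1) and -0.98 without the second ZT14 array. Its cosine peaked at 3.97 h with an amplitude of 0.59 ± 0.17. The amplitude was 0.34 ± 0.15 for HCRT, the orexin gene, and 0.22 ± 0.10 for NPY, neither with an unadjusted p under 0.05. It was 0.04 ± 0.14 for POMC, or 0.21 without the second ZT22 array. For AGRP it was 0.15 ± 0.21 with the second ZT14 array and 0.36 without it, and for VIP 0.11 ± 0.09 with that array and 0.03 without it. Of 24 measured peptide and receptor genes, NPVF was the 1 with an unadjusted cosine p under 0.05, a share near that over all genes (508 of 13009).

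FKBP5, a glucocorticoid-induced co-chaperone of the glucocorticoid receptor, was lower late. It gave 156 and 221 at ZT2, 198 and 197 at ZT6, 85.7 and 141 at ZT10, 104 and 92.7 at ZT14, 66.5 and 64.8 at ZT18, and 88.4 and 133 at ZT22. The 4 late arrays were below the 4 early ones, and late minus early was -1.24 ± 0.32 (unadjusted p 0.00078, adjusted p 1). Its other 2 probe sets gave -0.54 ± 0.51 and -0.44 ± 0.37. Of 14 glucocorticoid and fasting genes FKBP5 was the 1 with an unadjusted late minus early p under 0.05, against 191 higher and 287 lower of all 13009. KLF15, another glucocorticoid-induced gene, gave -0.35 ± 0.29. Its value on the second ZT14 array was 62.2, against 170 to 309 on the others, and without that array its difference was 0.13. A dimmer KLF15 probe set, with a mean of 44.8, gave -0.12 ± 0.36 with all arrays.

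For the other genes with the smallest p in the late against early comparison, which that comparison itself chose, the values are given as a description. CBX7, a Polycomb protein, gave 257 to 417 late and 108 to 242 early, a difference of 1.2 ± 0.27, with 0.88 on the arrays numbered 1 and 1.52 on those numbered 2. COQ9, needed for coenzyme Q synthesis, gave 199 to 329 late and 105 to 130 early, a difference of 1.07 ± 0.26 (0.96 and 1.18 by array number). VAX1, a homeobox factor of the ventral forebrain, gave 16.9 to 46.1 late and 6.58 to 13.2 early, with all early values under background. It differed by 2.17 on the arrays numbered 1 and 0.77 on those numbered 2. In these 3 the late and early values did not overlap, whereas those of ESCO1, RHOB and FRMD4A did. ESCO1, a cohesin acetyltransferase, differed by 1.50 ± 0.38, RHOB, a small GTPase, by 1.17 ± 0.32, and FRMD4A by 1.75 ± 0.49. On the arrays numbered 1 and 2 the differences were 1.07 and 1.94 for ESCO1, 1.84 and 0.50 for RHOB, and 1.23 and 2.26 for FRMD4A. A further RHOB probe set, with a mean of 48.8 and above background on all 12 arrays, gave 0.18 ± 0.32. The ZT6 values of ESCO1 and FRMD4A lay under background.

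On the lower side, SLC25A25, a mitochondrial carrier of ATP-magnesium and phosphate, gave 5.14 to 9.22 late and 17.7 to 44.3 early, a difference of -1.69 ± 0.41 (-1.85 and -1.54 by array number). Its late values lay under background. CTTNBP2NL gave 3.77 to 20.5 late and 23 to 61.9 early, and WNT4, a secreted signalling ligand, 4.36 to 43 late and 43.9 to 91.4 early. At ZT14 CTTNBP2NL gave 3.77 and 4.3, both under background. WNT4 differed by -1.51 ± 0.45, and by -0.87 without the second ZT14 array, which gave 4.36. MACIR differed by -2.37 ± 0.69, and by -1.49 without the second ZT14 array, which gave 1.38. THADA differed by -1.86 ± 0.54, with -2.93 on the arrays numbered 1 and -0.80 on those numbered 2. The late and early values overlapped in both. Over the 12 genes the adjusted p was 1 with all arrays.

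**Figure D5:**
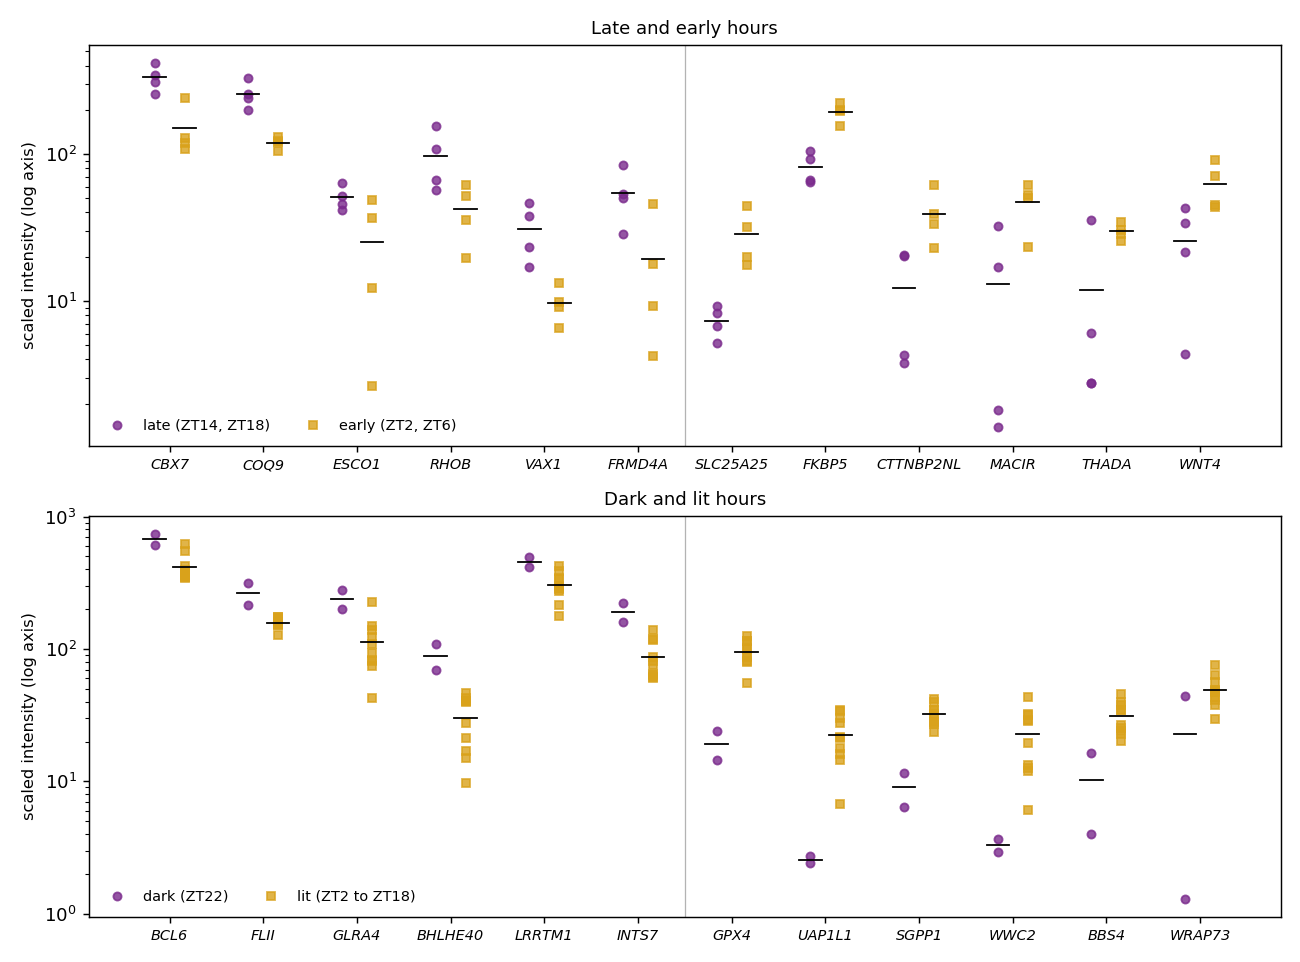
Intensity (log axis) of the 12 genes chosen by late against early hours (top) and the 12 chosen by dark against lit hours (bottom), 6 higher left and 6 lower right of the grey line, with a point per array and a bar at the mean. Circles stand for late or dark arrays, squares for early or lit ones. GPX4 gave 14.6 and 23.9 in the dark and 55.4 to 125 in the lit hours.

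For the dark hours, likewise chosen by that comparison, FLII, an actin-remodelling protein of the gelsolin family, gave 215 and 314 in the dark and 128 to 175 in the lit hours. INTS7, an Integrator complex subunit, gave 221 and 160 in the dark and 60.6 to 138 in the lit hours. BCL6, a transcriptional repressor, differed by 0.72 ± 0.23, the glycine receptor gene GLRA4 by 1.2 ± 0.38 and the synaptic adhesion gene LRRTM1 by 0.62 ± 0.22, each with overlapping values. Of the genes lower in the dark, UAP1L1 gave 2.72 and 2.4 in the dark, under background, and 6.75 to 34.5 in the lit hours. SGPP1, a sphingosine 1-phosphate phosphatase, gave 6.42 and 11.6 in the dark, both under background, and 23.5 to 42.1 in the lit hours. WWC2 gave 3.7 and 2.92 and BBS4 16.5 and 4 in the dark, all under background, so the sizes of their differences, -2.16 ± 0.53 and -1.67 ± 0.44, depend on values not above background. That of BBS4 was -0.82 without the second ZT22 array and -2.52 without the first. Other BBS4 probe sets, with means of 29.3 and 18.4, gave -0.38 ± 0.45 and -0.21 ± 0.65 with all arrays. WRAP73 differed by -2.11 ± 0.59, with 1.3 on the second dark array and 44.4 on the first, and by -0.10 without the second. Apart from GPX4, the lowest adjusted p among these genes was 0.79, for UAP1L1.

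The 12 genes with the smallest cosine p included ARNTL, NR1D2, CBX7, COQ9, RHOB, ESCO1 and SLC25A25. The further RHOB probe set had an amplitude of 0.12. The smallest p was that of WWC2, a regulator of the Hippo pathway. WWC2 gave 6.1 and 13.4 at ZT2, 29.1 and 19.4 at ZT6, 32.4 and 28.4 at ZT10, 31.8 and 43.4 at ZT14, 12 and 12.6 at ZT18, and 3.7 and 2.92 at ZT22. Its amplitude was 1.39 ± 0.27 with peaks at 10.7 and 10.9 h on the arrays numbered 1 and 2 (unadjusted p 6e-05, adjusted p 1), but 7 of its arrays were under background and its other 3 probe sets had amplitudes of 0.18, 0.05 and 0.46. SPSB3 had an amplitude of 0.47 ± 0.12 and a peak at 1.01 h, and ARHGEF37, PADI2 and POLD3 had peaks at 19.1, 19.9 and 21.4 h. A further ARHGEF37 probe set, with a mean of 22.5, had an amplitude of 1.28 and a peak at 11.4 h. The remaining ARHGEF37 sets peaked at 4.03, 17.2 and 13.8 h. A further POLD3 set, with a mean of 31.1, peaked at 9.56 h, and the remaining ones at 12.9, 18.9 and 10.6 h. The other PADI2 set, with a mean of 6.97, peaked at 13.3 h. By the test of any difference, ATL1, an endoplasmic reticulum shaping GTPase, gave 12.1 and 25.8 at ZT14 and 39.7 to 110 at the other times. RNF170, a ubiquitin ligase, gave 3.27 and 4.87 at ZT2 and 11.2 to 43.4 at the other times. COL17A1 gave 14.4 and 6.31 at ZT18 and 34.4 to 73.9 at the other times. C3orf33 gave 6.59 and 1.3 at ZT6 and 11.2 to 31.7 at the other times. The low values of RNF170, COL17A1 and C3orf33 were all under background, and so was the 12.1 of ATL1.

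Chaperone and metabolic genes had counts near the share over all genes. Of 22 cytosolic heat shock genes, 0 had an unadjusted cosine p under 0.05 by limma, against 260 of the 8658 genes above background, and 0 passed the adjusted test. The amplitude was 0.05 ± 0.07 for HSPA8, 0.04 ± 0.11 for DNAJA1 and 0.08 ± 0.09 for HSP90AA1. Of 18 endoplasmic reticulum folding genes, 0 had an unadjusted p under 0.05, with a median amplitude of 0.09. HSPA5, the main chaperone there, gave 2090 to 2770 and an amplitude of 0.03 ± 0.10, and HSP90B1 had 0.09 ± 0.12. Over 23 glycolysis and glycogen genes the median amplitude was 0.12, with 0 at the unadjusted level. The median was 0.20 over the 8658 genes above background and 0.27 over all genes. It was 0.40 over 12 retina and pineal genes, of which 4 were above background, 0.28 over 11 microglia and immune genes, 0.27 over 12 endothelial genes and 0.26 over 17 cholesterol synthesis genes. The median standard error of an amplitude was 0.215 for probe sets above background and 0.35 for all, and no difference between lists was tested.

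The 57 cytosolic ribosomal protein genes had a median amplitude of 0.09 and a median late minus early difference of 0.02, or 0 without the second ZT14 array. Of these genes, 6 were lower late at an unadjusted p under 0.05 and 0 higher, against 176 lower and 97 higher of the 8658 genes above background. These counts were not taken without the second ZT14 array. RPL5, a protein of the large subunit, gave 1590 and 1420 at ZT2, 1420 and 1600 at ZT6, 1590 and 2010 at ZT10, 606 and 1030 at ZT14, 675 and 1130 at ZT18, and 1720 and 673 at ZT22. The late values of RPL5 were all below the early ones, and late minus early was -0.86 ± 0.26 (unadjusted p 0.0031). Its peak times on the 2 array numbers lay 4.65 h apart. RPS25 differed by -1.83 ± 0.63, with 13.3 on the second ZT14 array, and by -1.02 without that array.

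EGR1 gave a late minus early difference of -1.25 ± 0.48 that came mostly from 1 array. It gave 1030 and 1070 at ZT2, 1240 and 988 at ZT6, 926 and 877 at ZT10, 695 and 59.7 at ZT14, 1000 and 989 at ZT18, and 729 and 627 at ZT22. Without the second ZT14 array the difference was -0.38 and the amplitude 0.20 in place of 0.76. A dimmer EGR1 probe set, with a mean of 27.2, gave -0.06 ± 0.49 with all arrays. For MBP the late minus early difference was -0.39 ± 0.21 with the second ZT14 array and 0.00 without it. Further MBP probe sets, with means of 3070 and 32.7, gave -0.01 ± 0.27 and -0.36 ± 0.52 with all arrays. The summed intensity of the 17 immediate early genes, to which EGR1 adds, was 1450 to 2410 on late arrays and 2440 to 2800 on early ones. Across these 17 genes 1 had an unadjusted cosine p under 0.05, near the share over all genes given above, and it was ATF3, which was under background.

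The summed levels of all 11 cell type lists overlapped between late and early arrays. The neuron sum over 14 genes was 22900 to 27700 on late arrays and 23000 to 26600 on early ones, and the astrocyte sum over 9 genes 7170 to 9790 late and 5480 to 9410 early. The tanycyte sum over 11 genes was 5540 to 7650 late and 6160 to 6980 early. In the dark the neuron sum was 23900 and 32300, against 22900 to 27700 in the lit hours. The median dark minus lit difference over the 14 neuron genes was 0.16, against 0.09 over all genes. The largest was 0.68 ± 0.32 for SLC32A1, the vesicular transporter of inhibitory neurons, with 1320 and 1700 in the dark and 358 to 1530 in the lit hours. Its other probe set, with a mean of 8.95, gave -0.52. The other inhibitory neuron genes listed, GAD1 and GAD2, gave -0.11 ± 0.48 and 0.23 ± 0.24. The log2 3′ to 5′ ratio of ACTB was 1.945 ± 0.213 on late arrays and 1.758 ± 0.119 on early ones (SD). The difference of 0.187 had a two-sided exact permutation p of 0.229, or 0.458 adjusted over the 2 control genes, where the smallest p the design allows is 0.0286. The GAPDH ratio differed by 0.0131 (exact permutation p 0.886). It was 0.06228 to 0.2377 on the arrays numbered 1 and 0.2596 to 0.3678 on those numbered 2, and the permutations did not take the array number into account.

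Peak times from the arrays numbered 1 and from those numbered 2 could be set side by side for each gene, as separate pools of birds. They lay within 2 h of each other for 6263 of 38439 probe sets (16.3%), and for 1366 of the 8658 genes above background (15.8%). Unrelated peak times on a 24 h circle would give shares of about this size, so these shares are not a sign of repeated peaks. Of the activators 2 of 4 were within 2 h, ARNTL and NPAS2. Of the 12 anterior pituitary markers 5 (41.7%) were, TSHB and CGA among them. The rest of these were GH and POU1F1, both under background, and CHGA, with an amplitude of 0.08 ± 0.10. For endoplasmic reticulum folding genes the count was 0 of 18. Across the 24 lists the share ran from 0% to 50%, with 33.3% for clock output genes and 29.4% for immediate early genes. Of the 260 genes above background with an unadjusted cosine p under 0.05, 71 (27.3%) had a peak between 0 and 4 h and 25 (9.62%) between 12 and 16 h. Over all 8658 genes those shares were 21% and 15.8%. These shares include the second ZT14 array and were not computed without it. Over the 8658 genes the median late minus early difference was -0.01 with that array and 0.09 without it.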

How the data were processed

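The deposited values are probe set intensities on a linear scale, from 0.02747 to 13690, which the authors made with GCOS 1.2, per the submitters' processing notes. Its settings were not given in the sources used here. Arrays were brought to a common median and log2 values were computed from the deposited intensities with a pseudocount of 1.538 (10% of that median). The 96 control probe sets among 38535 were dropped. The platform annotation gave 27168 of the rest 1 symbol, 177 several and 11094 none. Each gene stands for the probe set of 1 symbol that was brightest on average over 24 arrays, and 10722 of 13009 symbols occur in the Coturnix japonica 2.1 gene table. Names ending in _s_at or _a_at can match related transcripts.

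In R 4.3.3, limma 3.58.1 (lmFit, eBayes with trend) fitted a mean for each of 12 groups on all 24 arrays (12 residual degrees of freedom), and a cosine and sine for each photoperiod (18), so that the spread also uses the short-day arrays; tests concern long days only. Benjamini-Hochberg adjustment covered 38439 probe sets, with a threshold of 0.05. The number of arrays limits the precision. The labels call the 2 arrays of a time biological replicates. Fits were tested on simulated data. Figures were drawn with matplotlib.

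Named genes were the 6 of smallest p in each direction of the 2 comparisons, 12 of the cosine and 8 of any difference. Each of these had a mean over the 12 long-day arrays above background, though some were under background on several arrays. A fixed set and up to 3 per list by cosine p were also named. Other list members are named with their list. Lists and members were chosen with earlier results of these data known, and agreement of peak times within 2 h was added after the data were seen. Alternatives were other pseudocounts, scalings, filters, variance models, a replicate block, a 12 h term, either array number alone and leaving out each array.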

Additional observations from a re-analysis of the deposited data

Results flagged for a closer look

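Across 42 sets of 4 to 10 arrays examined for a value far from the rest, 1 was found, and chance gives about 1 in 20. On the lit arrays, FLII gave 128 on the first ZT14 array, against 151 to 175 on the other 9 lit arrays. The dark values of FLII, 215 and 314, lay above all of these.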

How the results depend on the processing

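The count of probe sets past the late against early test was 0 with all arrays and under each of 11 other settings, and 0 to 76 when single arrays were left out. The count for any difference among times was 0 and 0, and 0 to 125 when single arrays were left out. The cosine count was 0 under all alternatives, with each array number alone and with a 12 h term included. The dark against lit count of 1 became 0 with a pseudocount of 16, without centring, with probe sets above background only and without a variance trend. It became 2 with a pseudocount of 5% of the median, without the lowest 25% of probe sets and on the 12 arrays alone, and was 0 to 4 when single arrays were left out. Unadjusted shares for late against early ran from 2.97% without centring to 7.29% without the first ZT14 array.

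The replicate number used as a block left the counts at 0, 1, 0 and 0, with 1959, 1575, 1699 and 1905 at the unadjusted level. Same-numbered arrays deviated together by correlations of 0.012 to 0.07 over 15 pairs of long-day groups, small but all positive. The main fit did not use the numbers to pair the samples, so a shift shared by same-numbered arrays stays in its spread.

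Other probe sets of the same gene gave the opposite sign, with the cause not tested: late minus early was -0.03 for COQ9, 0.12 and 1.37 for SLC25A25, 0.34 and 0.11 for CTTNBP2NL, 0.75 for MACIR and 0.21 for THADA. Dark minus lit was -0.09 for GLRA4, -0.57 and -0.16 for BHLHE40, -0.10 for LRRTM1, and 0.03 and 0.78 for WWC2. These sets had mean intensities of 2.24 to 23.8, except those of GLRA4 (66.7) and LRRTM1 (90.4). With single arrays left out, MACIR reached -3.26 (adjusted p 0.034) and WNT4 -2.16 (0.019) without the first ZT14 array, and WRAP73 -4.12 (0.003) without the first ZT22 array. Leaving out the other array of the pair gave -1.49 for MACIR and -0.87 for WNT4 (without the second ZT14 array) and -0.10 for WRAP73 (without the second ZT22 array). There were 2 pools per time, some intensities lay near background, and the probes were those of another species. The part of these in the counts was not tested. Late minus early differences well above their median standard error of 0.385 did not pass the adjusted test with all arrays. Among them were 1.2 ± 0.27 for CBX7 and -2.37 ± 0.69 for MACIR.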
